A study of Homo sapiens with 4 samples.

Results

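The insulin-like growth factor (IGF) binding proteins, the IGF receptors and the docking protein IRS1 form the set of 10 genes described here, chosen by name from the 58735 genes of the deposited table: IGFBP1 to IGFBP7, IGF1R, IGF2R and IRS1. All 10 were among the 14100 genes tested. They were measured by RNA sequencing in cells that the labels call HFL1, a line of human lung fibroblasts. There were 2 libraries labelled KO and 2 labelled WT. The study's design text names calumenin, which binds calcium inside the secretory pathway, as the gene removed or reduced in its fibroblasts, and the question was how its loss affects senescence and fibrosis signalling. The labels give no other treatment for either group. They do not say how the KO cells were made, whether they are a clone, or whether replicate libraries are separate cultures. The p-values therefore cover the spread between libraries, part or all of which may be technical.

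IGF1 and IGF2 are secreted growth factors that signal through IGF1R, a receptor tyrosine kinase, and IRS1 and IRS2 are docking proteins that link the active receptor to the PI3K and AKT kinases. IGFBP1 to IGFBP6 bind IGFs with high affinity, can hold them away from the receptor or prolong their life, and release them when cut by proteases such as pappalysin. IGFBP7 is a related secreted protein with low affinity for IGFs. IGF2R, also the mannose 6-phosphate receptor, takes up IGF2 for destruction in lysosomes and sorts lysosomal enzymes. Several of these binding proteins, IGFBP3, IGFBP5 and IGFBP7 among them, are known as secreted products of senescent cells.

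Of the 10 genes, IGFBP3 and IRS1 rose in KO, IGFBP5 fell, and 7 did not pass the threshold of a limma Benjamini-Hochberg adjusted p under 0.05. Across all genes tested, 23.3% passed, 12.1% upward and 11.1% downward, so 3 of 10 is near the background. The KO and WT libraries did not overlap for 8 of the 10, with 4 above and 4 below, beside 65.7% of all genes tested (34.4% above and 31.3% below). The median log2 change of the 10 was 0.01, and 0.03 over all genes tested. The median size of the log2 change, without its sign, was 0.51 for the 10 and 0.33 over all. Log2 changes are KO minus WT on the log2(FPKM + 1) scale, where FPKM is a level per length of gene and per depth of library. Each fold divides the mean FPKM of the groups. With 2 libraries in each group, the smallest p of an exact two-sided permutation test is 0.333.

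The promoter windows of the 3 genes that passed are shown because they are the members whose level differed by the test. They come from RefSeq on GRCh38.p14, run from 250 bases before to 50 after the start site, and are written 5′ to 3′ on the gene's strand, with each match to a searched motif in capitals. IGFBP5 is chr2:216695500-216695799, IGFBP3 is chr7:45921223-45921522 and IRS1 is chr2:226799771-226800070, all on the minus strand.
IGFBP5: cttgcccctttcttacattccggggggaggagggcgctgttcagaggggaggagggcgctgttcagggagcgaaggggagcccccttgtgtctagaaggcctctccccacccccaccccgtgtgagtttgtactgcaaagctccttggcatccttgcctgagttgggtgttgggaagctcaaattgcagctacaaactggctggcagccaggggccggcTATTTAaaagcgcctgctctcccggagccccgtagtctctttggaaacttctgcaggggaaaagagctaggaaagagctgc
IGFBP3: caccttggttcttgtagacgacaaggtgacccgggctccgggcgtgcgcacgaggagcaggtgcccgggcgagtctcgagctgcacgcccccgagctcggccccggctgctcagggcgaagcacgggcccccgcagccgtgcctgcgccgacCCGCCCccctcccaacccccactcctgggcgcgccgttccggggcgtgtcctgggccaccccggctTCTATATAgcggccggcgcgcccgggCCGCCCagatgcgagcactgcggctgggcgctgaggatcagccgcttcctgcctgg
IRS1: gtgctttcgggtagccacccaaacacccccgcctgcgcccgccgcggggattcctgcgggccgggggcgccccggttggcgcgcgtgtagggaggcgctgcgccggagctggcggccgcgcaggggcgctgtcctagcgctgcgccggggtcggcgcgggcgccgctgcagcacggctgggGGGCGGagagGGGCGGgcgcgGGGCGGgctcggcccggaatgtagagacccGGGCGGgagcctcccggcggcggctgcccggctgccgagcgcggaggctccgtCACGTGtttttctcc
The capitals mark a TATA-like TATTTA in IGFBP5, a TATA-like stretch and a pair of GC boxes on the opposite strand (CCGCCC) in IGFBP3, and 4 GC boxes (GGGCGG) and an E box (CACGTG) in IRS1. The matches in IGFBP3 include overlapping ones on both strands.

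Windows were found for 8 of the 10 genes, and not for IGFBP1 and IGFBP7. Of 35116 promoters of the same length, on both strands, 48.2% held TATNNA, 45.0% the GC box, 34.6% CCAAT, 7.71% the AP-1 site TGANTCA, 7.26% the E box and 3.42% TGTTTAC, a forkhead site. On the gene's strand, TATNNA starting 40 to 20 bases before the start site stood in IGFBP3, IGFBP4 and IGFBP5, and in 6.42% of all promoters. This window and the looser TATA pattern were chosen after the sequences were seen. The GC content was 59.0% for IGFBP5, 74.7% for IGFBP3 and 79.3% for IRS1, with a median of 58.7% over all promoters. The matches are descriptions of the letters and say nothing of use in these cells.

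Libraries and labels were checked first. Whole reads recovered from the FPKM values numbered 17699349 and 16622382 in the KO libraries and 17715774 and 16173899 in the WT libraries. Mitochondrial genes held 9.34% and 9.71% of them in KO, against 9.66% and 12.7% in WT, so WT replicate 2 stood highest. CALU, which encodes calumenin (ENSG00000128595), stood at 6.59 and 5.95 FPKM in the KO libraries, against 87.7 and 81.8 FPKM in the WT libraries (13.5-fold lower in KO, log2 -3.56, limma adjusted p = 0.00154). Of 13 fibroblast markers, 8 stayed below 1 FPKM in every library and 2, COL1A2 and POSTN, had 0 reads in all (up to 0.0164 and 0.0335 FPKM at 3 reads per library), while 2 of 10 epithelial markers stayed below 1 FPKM. The summed level of the 10 epithelial markers, most of it KRT8, KRT18 and KRT7, was 1922 and 2296 FPKM in KO, against 1041 and 1181 FPKM in WT. Of the 8 measured, CDH1, KRT8, KRT18 and KRT19 rose, CLDN4 fell (5.12-fold lower in KO, limma adjusted p = 0.00414), and EPCAM, KRT7 and ELF3 did not pass. The summed level of the 13 fibroblast markers was 479.8 and 749 FPKM in KO, against 986 and 1391 FPKM in WT, nearly all of it S100A4, which did not pass (limma adjusted p = 0.0789). Of the 5 measured, COL1A1 rose 12.1-fold (limma adjusted p = 0.0041), NT5E and TWIST2 fell, and THY1, with both KO libraries above both WT libraries, did not pass either. Of the markers of other cell types, 6 of 8 hepatocyte, 6 of 6 endothelial and 6 of 6 leukocyte genes stayed below 1 FPKM in every library. The 2 hepatocyte markers that were measured, FGB and HNF4A, both rose in KO. Most fibroblast markers thus went against the label, and the cells are called HFL1 as the labels do. The part of these marker differences in the changes of the IGF genes was not tested, and in bulk libraries fewer cells of a type and less RNA per cell cannot be told apart.

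IGFBP5 showed the widest difference of the 10. This binding protein sticks to extracellular matrix and is known to be induced in fibrotic lung. It held 1.51 and 1.51 FPKM in the KO libraries (170 and 159 reads), against 10.6 and 26.0 FPKM in the WT libraries (1249 and 2750 reads). The groups were far apart, and the WT libraries themselves differed 2.45-fold. The mean was 1.51 ± 0.000258 FPKM in KO and 18.3 ± 10.9 FPKM in WT (SD, n = 2 per group), 12.2-fold lower in KO. The log2 change was -2.82 (SE 0.39, limma adjusted p = 0.00902), larger in size than that of 99.6% of genes tested. The KO values were closer to each other than their counting error, as the exact Poisson 95% interval of the first runs from 1.29 to 1.75 FPKM. Such intervals, here and below, cover counting error only. The size of the fold depends on the WT library used: it was 7.05-fold without WT replicate 2 and 17.3-fold without WT replicate 1. The limma adjusted p was 0.00426 to 0.0334 over the 4 fits that leave out 1 library. In each of these a group of 1 library is assumed to vary like the other group, so without a WT library the spread between the WT libraries does not enter the test. The call was lost with no filter on low values (limma adjusted p = 0.0681).

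IGFBP3, the main IGF carrier of blood plasma and a known p53 target, moved the other way. It held 37.8 and 45.6 FPKM in the KO libraries, against 22.6 and 19.1 FPKM in the WT libraries. Both KO libraries lay above both WT libraries. The mean was 41.7 ± 5.49 FPKM in KO and 20.8 ± 2.48 FPKM in WT (SD, n = 2 per group), a 2.002-fold ratio (limma adjusted p = 0.0152), and on the log2 scale it rose by 0.97 (SE 0.17). The call was lost without WT replicate 1 (limma adjusted p = 0.0614), without WT replicate 2 (limma adjusted p = 0.102) and with no filter on low values (limma adjusted p = 0.0672).

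**Figure D1:**
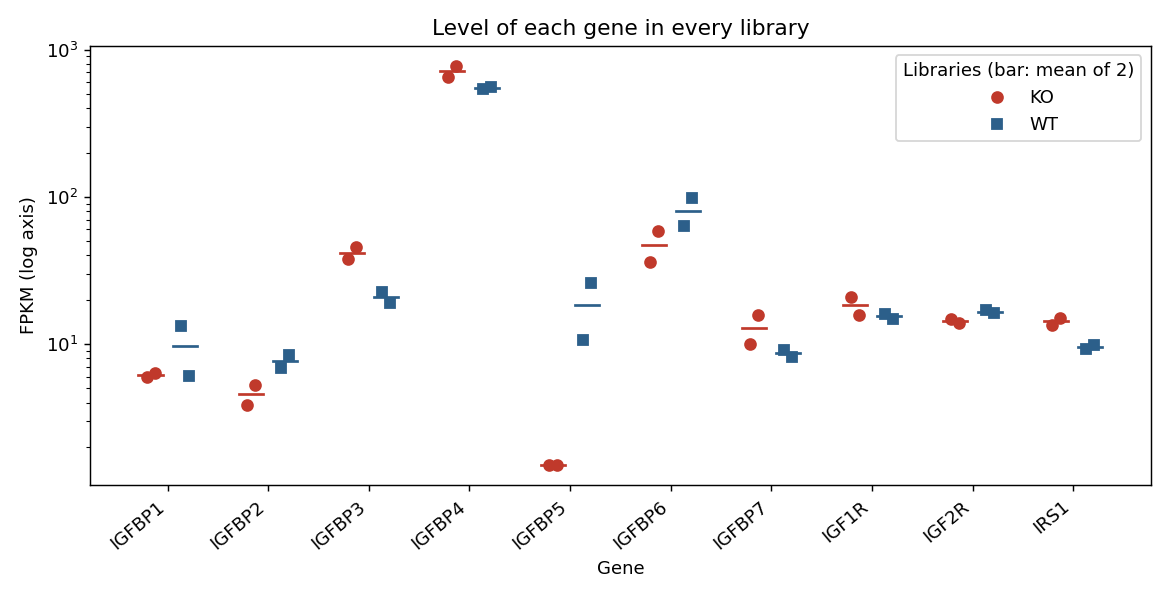
FPKM of each of the 10 genes on a log axis, KO libraries left (red circles) and WT libraries right (blue squares), with a bar at the mean of 2 libraries. IGFBP4 stands highest in every library, and IGFBP5 has both KO libraries at 1.51 FPKM, against 10.6 and 26.0 FPKM in WT.

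The other high-affinity binding proteins did not pass the threshold. IGFBP4, which blocks IGF action until cut by pappalysin, held 651 and 776 FPKM in the KO libraries, against 540.3 and 559 FPKM in the WT libraries. Its level exceeded that of 99.8% of genes tested, and both KO libraries lay above both WT libraries (log2 0.37, SE 0.19, limma adjusted p = 0.213). IGFBP4 lies on chromosome 17, where the median log2 change of the 941 genes tested was -0.19 and 21.0% of them fell. IGFBP6, which prefers IGF2 to IGF1, held 35.9 and 58.6 FPKM in the KO libraries, against 63.2 and 97.9 FPKM in the WT libraries. The KO libraries were both below the WT libraries, and replicate 2 was above replicate 1 in each group, 1.63-fold in KO and 1.55-fold in WT (log2 -0.76, SE 0.31, limma adjusted p = 0.133). IGFBP2, which carries an integrin-binding motif, held 3.86 and 5.29 FPKM in the KO libraries, against 6.85 and 8.46 FPKM in the WT libraries. These groups did not overlap either, and the difference (log2 -0.64, SE 0.19) missed the threshold narrowly (limma adjusted p = 0.0598). It passed under 5 of 13 alternatives, with the lowest limma adjusted p (0.00759) from the replicate number as a block. The others were a filter of 5 FPKM (limma adjusted p = 0.0476), scaling by total reads, voom on reads and the fit without KO replicate 2. IGFBP6 passed with that block too, but the replicate numbers were not taken as pairs.

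IGFBP1, a liver-type binding protein induced by fasting and stress, held 6.01 and 6.35 FPKM in the KO libraries, against 13.2 and 6.02 FPKM in the WT libraries. The KO values straddle WT replicate 2, so the whole difference sits in WT replicate 1 (log2 -0.48, SE 0.33, limma adjusted p = 0.341). Without that library the log2 change was 0.033. Counting error does not span the gap between the WT libraries, with exact Poisson 95% intervals of 11.96 to 14.6 and 5.13 to 7.01 FPKM. IGFBP7, the low-affinity relative, held 10.1 and 15.7 FPKM in the KO libraries, against 9.11 and 8.22 FPKM in the WT libraries. KO lay above WT, most of it from KO replicate 2 (log2 0.49, SE 0.22, limma adjusted p = 0.164), and the difference passed without KO replicate 1, where the spread comes from the WT libraries alone (limma adjusted p = 0.0374). The annotated end of IGFBP7 overlaps that of POLR2B on the other strand, which stood at 27.2 and 20.8 FPKM in KO against 17.7 and 15.4 FPKM in WT. Whether the counting used strand is not given in the sources used here, so reads of this overlap cannot be assigned.

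**Figure D2:**
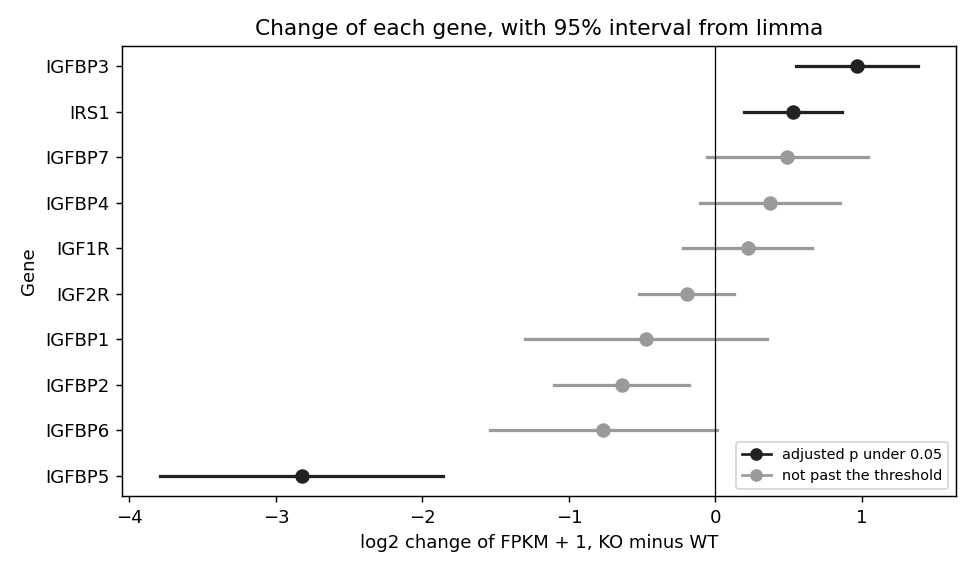
Log2 change of FPKM + 1, KO minus WT, for each gene (point) with the 95% interval of the limma fit (line), black where the adjusted p was under 0.05 and grey elsewhere. IGFBP5 stands alone at -2.82, and the intervals of IGF1R (-0.22 to 0.66) and IGF2R (-0.52 to 0.13) span 0.

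Neither receptor passed the threshold. IGF1R, the signalling receptor, held 20.9 and 15.7 FPKM in the KO libraries, against 16.0 and 14.8 FPKM in the WT libraries, and the groups overlapped. Its log2 change was 0.22 (SE 0.18, limma adjusted p = 0.408), with a 95% interval from -0.22 to 0.66. IGF2R, the clearing receptor, held 14.8 and 13.8 FPKM in the KO libraries, against 16.9 and 16.2 FPKM in the WT libraries. Both KO libraries were lower (log2 -0.19, SE 0.13, 95% interval from -0.52 to 0.13, limma adjusted p = 0.322). Neither interval reaches a 2-fold change in either direction, and neither p shows that the levels were equal.

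IRS1, the docking protein, held 13.6 and 14.9 FPKM in the KO libraries, against 9.20 and 9.91 FPKM in the WT libraries. The groups did not overlap and the replicates were close (14.2 ± 0.973 FPKM in KO and 9.56 ± 0.501 FPKM in WT, SD, n = 2 per group). IRS1 rose 1.49-fold (log2 0.53, SE 0.13) at the edge of the threshold (limma adjusted p = 0.0419). The call was lost whichever of the 4 libraries was left out (limma adjusted p = 0.0586 to 0.287), and also with scaling by total reads, quantile normalization or no filter (limma adjusted p = 0.0504 to 0.0895).

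IRS2, the other docking protein and the counterpart of IRS1 downstream of the receptor, fell. It held 2.91 and 3.10 FPKM in the KO libraries, against 14.6 and 11.6 FPKM in the WT libraries, 4.37-fold lower in KO (log2 -1.81, SE 0.16, limma adjusted p = 0.0039). The log2 ratio of IRS1 to IRS2, a comparison chosen after the values were seen, was 1.90 and 1.96 in the KO libraries, against -0.61 and -0.21 in the WT libraries. IRS1 thus stood above IRS2 in both KO libraries and below it in both WT libraries (exact two-sided permutation p = 0.333, the smallest this design allows). Among the other receptors and adaptors, GRB14, an adaptor that inhibits the insulin receptor, rose, with 12.3 and 12.7 FPKM in KO against 6.04 and 7.09 FPKM in WT (limma adjusted p = 0.0141). GRB2, which couples receptors to RAS, fell 1.43-fold (limma adjusted p = 0.0466) and lies on chromosome 17. In all, 1 of the 8 measured genes of this list rose, 2 fell and 5 did not pass (37.5% called, against 23.3% of all genes tested), with a median log2 change of -0.13. The call of GRB14 was lost without either WT replicate, and that of GRB2 whichever library was left out.

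The makeup of the high-affinity binding proteins was also compared. Levels per gene length can be compared within a library, so the FPKM of IGFBP1 to IGFBP6 were summed. The sum was 736 and 893 FPKM in the KO libraries, against 657 and 716 FPKM in the WT libraries. IGFBP4 made up 88.4% and 86.9% of it in KO, against 82.3% and 78.0% in WT. IGFBP3 made up 5.14% and 5.10% in KO, against 3.44% and 2.66% in WT. IGFBP6 made up 4.87% and 6.56% in KO, against 9.62% and 13.7% in WT. The share of IGFBP5 was 0.205% and 0.169% in KO, against 1.62% and 3.64% in WT. The share of IGFBP2 was 0.524% and 0.592% in KO, against 1.04% and 1.18% in WT, and that of IGFBP1 was 0.816% and 0.711% in KO, against 2.01% and 0.840% in WT. For the shares of all 6 genes the groups did not overlap (exact two-sided permutation p = 0.333 each, the smallest this design allows). The shares are parts of 1 sum, most of it IGFBP4, so these are not 6 separate results. By FPKM the groups overlapped for IGFBP1, and they did not overlap for 65.7% of all genes tested. Without IGFBP4 the sum of the other 5 was 85.1 and 117 FPKM in KO, against 116 and 158 FPKM in WT, and the groups overlapped (exact two-sided permutation p = 0.667).

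**Figure D3:**
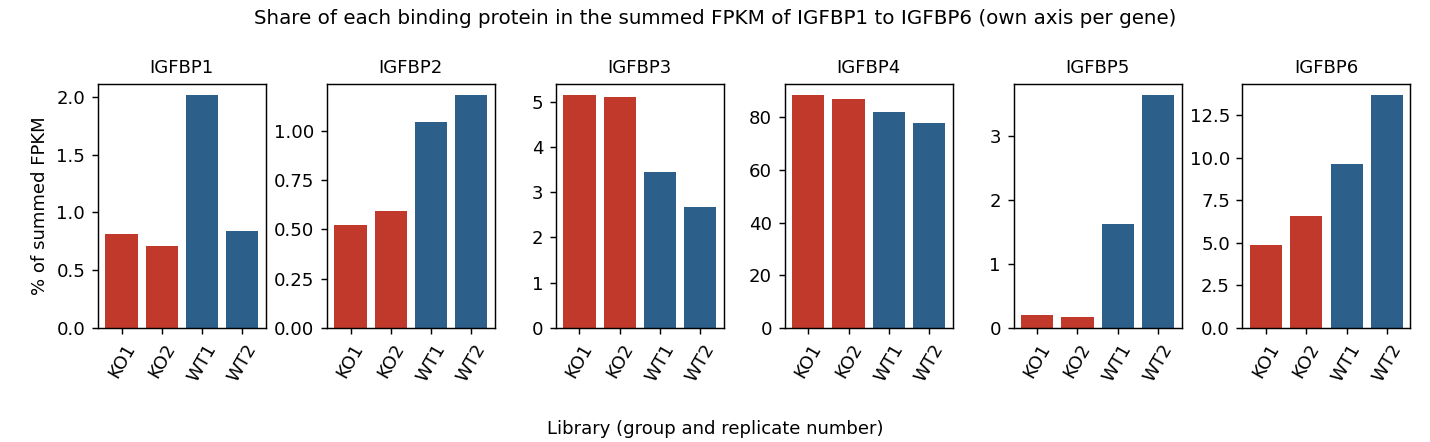
Percent of the summed FPKM of IGFBP1 to IGFBP6 held by each gene in every library, KO libraries left (red) and WT libraries right (blue), each panel with its own axis from 0. IGFBP3 and IGFBP4 have larger shares in both KO libraries, and IGFBP1, IGFBP2, IGFBP5 and IGFBP6 smaller ones.

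By mean level, the order in KO was IGFBP4, IGFBP6, IGFBP3, IGF1R, IGF2R, IRS1, IGFBP7, IGFBP1, IGFBP2 and IGFBP5. In WT it was IGFBP4, IGFBP6, IGFBP3, IGFBP5, IGF2R, IGF1R, IGFBP1, IRS1, IGFBP7 and IGFBP2. IGFBP5 was thus the lowest of the 10 in KO. Its place in WT differed between libraries: it stood below IGF2R, IGF1R and IGFBP1 in WT replicate 1 and above them and IGFBP3 in WT replicate 2. Neighbours in the order whose libraries overlapped in level were IGFBP6 and IGFBP3, IGF2R and IRS1, and IRS1 and IGFBP7 in KO. In WT they were IGFBP3 and IGFBP5, IGFBP5 and IGF2R, IGFBP1 and IRS1, and IGFBP7 and IGFBP2. Overlap is a description here, as genes were not tested against each other.

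A pair of these binding protein genes lies side by side, tail to tail, at each of a pair of loci. On chromosome 2 (GRCh38), IGFBP2 (ENSG00000115457) runs from 216632828 to 216664436 on the plus strand and IGFBP5 (ENSG00000115461) from 216672105 to 216695525 on the minus strand, 7668 bases apart. On chromosome 7, IGFBP1 (ENSG00000146678) runs from 45888357 to 45893668 on the plus strand and IGFBP3 (ENSG00000146674) from 45912245 to 45921874 on the minus strand, 18576 bases apart. The log2 ratio of IGFBP5 to IGFBP2 was -0.95 and -1.33 in the KO libraries, against 0.57 and 1.52 in the WT libraries. In the chromosome 2 pair both genes were lower in KO, and IGFBP5 by more. The log2 ratio of IGFBP3 to IGFBP1 was 2.47 and 2.66 in the KO libraries, against 0.73 and 1.52 in the WT libraries. For both ratios the groups did not overlap (exact two-sided permutation p = 0.333, the smallest this design allows). None of the 8 nearest tested coding genes, 2 on each side of each locus, passed the threshold, beside 23.3% of all genes tested. Their log2 changes ran from -0.40 to 0.21, and their distances from the locus from 53648 to 2041414 bases. Both KO libraries lay below WT for SMARCAL1 and above it for ARPC2, and the groups overlapped for the others. At an unadjusted limma p under 0.05 the count of these 8 genes was also 0. With voom on reads it was 1, again 0 after adjustment. The share of all genes at that unadjusted level was not computed, so these counts cannot be set against a background.

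The remaining genes lie apart. IGFBP4 (ENSG00000141753) is on chromosome 17 from 40443461 to 40457731, plus strand, IGFBP6 (ENSG00000167779) on chromosome 12 from 53097436 to 53102345, plus strand, and IGFBP7 (ENSG00000163453) on chromosome 4 from 57030773 to 57110385, minus strand. IGF1R (ENSG00000140443) is on chromosome 15 from 98648539 to 98964530, plus strand, and IGF2R (ENSG00000197081) on chromosome 6 from 159969099 to 160113507, plus strand. IRS1 (ENSG00000169047) is on chromosome 2 from 226731317 to 226799759, minus strand. The median log2 change of the genes tested was 0.05 on chromosome 2, 0.03 on chromosome 7, 0.10 on chromosome 4, 0.09 on chromosome 12, 0.04 on chromosome 15 and 0.06 on chromosome 6.

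The growth factors themselves were not measured above 1 FPKM. IGF1 and the insulin gene INS had 0 reads in every library, and 3 reads per library would be at most 0.0225 and 0.236 FPKM. IGF2 stood at 0.0245 and 0.035 FPKM in the KO libraries, against 0.173 and 0.166 FPKM in the WT libraries, with 48 reads in all. A duplicate annotation of IGF2 had 0 reads. These genes, with IGFALS, which holds IGFs in the large plasma complex, were named after their values were seen, since none of the list of 4 could be tested.

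Genes that cut the binding proteins, or restrain that cutting, moved in both directions. Of 8 measured, 2 rose, 5 fell and 1 did not pass, with a median log2 change of -0.65. That is 87.5% called, against 23.3% of all genes tested. STC2, a stanniocalcin that inhibits pappalysins, held 2.51 and 3.56 FPKM in the KO libraries, against 20.1 and 22.7 FPKM in the WT libraries (log2 -2.48, SE 0.18, limma adjusted p = 0.00312). STC1, its relative and also a pappalysin inhibitor, held 5.92 and 5.87 FPKM in KO, against 13.7 and 10.2 FPKM in WT (limma adjusted p = 0.0206). PAPPA, the pappalysin that cuts IGFBP4 and IGFBP5, fell too, with 21.8 and 18.7 FPKM in KO against 34.6 and 30.4 FPKM in WT (limma adjusted p = 0.033). The protease and its inhibitors were thus all lower in the KO libraries, STC2 the most.

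HTRA1, a secreted serine protease that cuts IGFBP5 and itself has an IGFBP-like domain, was 2.03-fold lower (31.6 and 27.4 FPKM in KO, against 67.7 and 52.1 FPKM in WT, limma adjusted p = 0.0184). ADAM12, a metalloprotease that cuts IGFBP3 and IGFBP5, rose to 3.04 and 2.71 FPKM in KO, against 1.30 and 0.978 FPKM in WT (limma adjusted p = 0.0187). ADAM9, another metalloprotease, rose to 110 and 96.4 FPKM in KO, against 59.5 and 57.9 FPKM in WT (limma adjusted p = 0.019). PAPPA and ADAM9 were named after their values were seen. The log2 change of STC2 was -2.67 to -2.30 in the fits that leave out 1 library, where a kept call is no sign of stability. The calls of STC1, PAPPA, HTRA1, ADAM12 and ADAM9 were each lost without at least 2 of the 4 libraries. Fewer of all genes passed in such fits too. These 5 calls were also lost with no filter on low values (limma adjusted p = 0.0646 to 0.09).

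**Figure D4:**
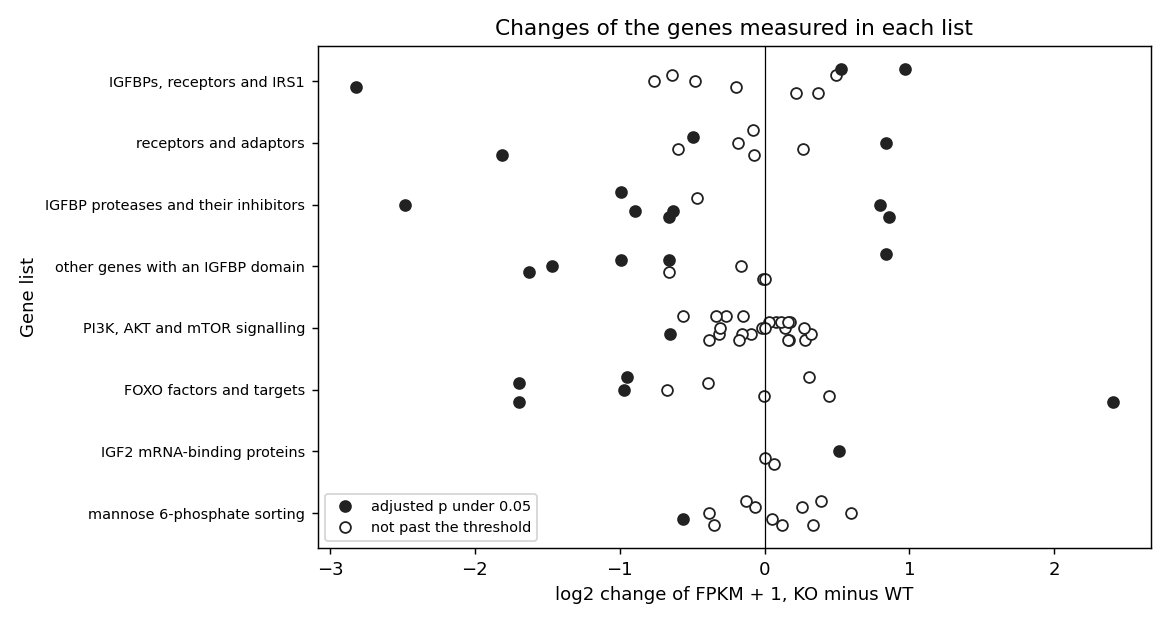
Log2 change of FPKM + 1, KO minus WT, of every measured gene in the set of 10 and in each pathway list, filled where the adjusted p was under 0.05. The protease list has STC2 farthest left at -2.48, and the PI3K, AKT and mTOR list clusters near 0 with RPTOR filled at -0.65.

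Other genes with an IGFBP domain also moved unevenly. Of 9 measured, 1 rose, 4 fell and 4 did not pass (55.6% called, against 23.3% of all genes tested), with a median log2 change of -0.66. IGFBPL1 rose to 7.63 and 5.75 FPKM in KO, against 3.46 and 3.07 FPKM in WT (limma adjusted p = 0.023). CTGF, a matrix-associated growth regulator, was 3.23-fold lower (limma adjusted p = 0.00426). WISP1, a member of the same family, was 8.11-fold lower (0.451 and 0.200 FPKM in KO, against 2.67 and 2.61 FPKM in WT). The KO values of WISP1 rest on 41 and 17 reads, and its log2 change was -1.46 (SE 0.18, limma adjusted p = 0.00647). Its call was lost with no filter on low values (limma adjusted p = 0.0564). The call of IGFBPL1 was lost without either WT replicate and without KO replicate 1.

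Downstream of the receptor, few of the kinases and their regulators passed the threshold. Of 24 measured genes of PI3K, AKT and mTOR signalling, 23 did not pass and RPTOR, the scaffold of the mTORC1 complex, fell, with 6.55 and 6.61 FPKM in KO against 11.2 and 10.6 FPKM in WT (log2 -0.65, SE 0.13, limma adjusted p = 0.0208). RPTOR also lies on chromosome 17, and its call was lost without either WT replicate. The median log2 change of the list was -0.01. That is 4.17% of the list called, against 23.3% of all genes tested, a share given as a description.

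Genes listed as factors or targets of FOXO, the transcription factors that AKT keeps out of the nucleus, moved in both directions. Whether each listed gene is a target in these cells was not tested. Of 10 measured, 1 rose, 4 fell and 5 did not pass (50% called, against 23.3% of all genes tested), with a median log2 change of -0.53. PDK4, a kinase that inhibits pyruvate dehydrogenase, rose to 53.0 and 42.3 FPKM in KO, against 7.89 and 8.41 FPKM in WT (log2 2.40, SE 0.16, limma adjusted p = 0.00286). BCL6, a transcriptional repressor, fell to 7.88 and 7.48 FPKM in KO, against 27.0 and 27.4 FPKM in WT (limma adjusted p = 0.00333). TRIB2, a pseudokinase, was 15.9-fold lower (0.112 and 0.239 FPKM in KO, against 2.96 and 2.63 FPKM in WT). The KO values of TRIB2 rest on 9 and 18 reads, and its log2 change was -1.69 (SE 0.17, limma adjusted p = 0.00451). Its call was lost with no filter on low values (limma adjusted p = 0.0501). SESN1, a stress-responsive inhibitor of mTORC1, was 2.47-fold lower (limma adjusted p = 0.0126), a call lost without either WT replicate.

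The remaining lists held 1 call each. Of the 3 IGF2 mRNA-binding proteins, IGF2BP3 rose, with 3.20 and 3.13 FPKM in KO against 1.95 and 1.89 FPKM in WT (limma adjusted p = 0.0474). The other 2 did not pass. Of 11 genes that make or sort the mannose 6-phosphate tag read by IGF2R, 10 did not pass. NAGPA, which uncovers the tag, was 1.65-fold lower (limma adjusted p = 0.0318). The shares called were 33.3% and 9.09%, against 23.3% of all genes tested. Both calls were lost whichever library was left out. Over all pathway lists, with each gene counted once, 6 of 72 measured genes rose and 16 fell, or 30.6% called, against 23.3% of all genes tested (12.1% upward and 11.1% downward). The shares called in each list are descriptions, as the lists were chosen with earlier results known.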

How the data were processed

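RNA from 2 KO and 2 WT libraries of HFL1 cells was sequenced on an Illumina instrument with paired ends, per the labels' protocols, and aligned with HISAT2 2.0.5, per the submitters' processing notes, which name hg38 and mm10 without roles. Identifiers, starts and ends of all 58735 genes equalled GENCODE release 29 on GRCh38. The authors deposited FPKM values. How reads were counted and whether libraries were scaled is not given in the sources used here. Whole reads were recovered by multiplying FPKM by gene length and dividing by the value of 1 read in that library, which came within 0.01 of a whole number for 100% of values. The library size implied by the value of 1 read was 17514627 and 16385301 in KO, below the reads recovered. In WT it was 18252999 and 16391112, above the reads recovered. The depth behind the FPKM values was thus not the recovered total, and scaling by total reads was among the alternatives. A level of 3 reads, used as the floor, is 0.164 to 0.183 FPKM for a gene of 1 kb.

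Values were analysed as log2(FPKM + 1) with limma 3.58.1 in R 4.3.3, with an intensity trend and without the replicate block (residual df 2, prior df 3.54), for the 14100 genes that reached 1 FPKM in 2 or more libraries. The threshold was a Benjamini-Hochberg adjusted p under 0.05 over all of them. The fit was tested on simulated data, where unchanged genes were called more often than the threshold allows. Alternatives were another pseudocount, filter, scaling or test, the replicate number as a block, and each library left out with the same genes tested, a lone library being assumed to vary like the other group.

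The 10 genes and the lists were chosen with earlier results of these data known. Named genes were CALU, the 10 genes, and up to 4 genes past the threshold by size in each pathway list. Other genes, such as the markers in the check of the labels, were picked once their values were known.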

Additional observations from a re-analysis of the deposited data

How the results depend on the processing

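Leaving out 1 library leaves a group of 1, which is assumed to vary like the other group, so a call that stays in such a fit is no sign of stability. Over these fits the number of the 10 genes called higher ranged from 0 to 2 and lower from 1 to 2. The log2 change of IGFBP1 reversed to 0.033 without WT replicate 1 (limma adjusted p = 0.951) and was -0.99 without WT replicate 2. The call of CALU held under all 13 alternatives (limma adjusted p = 1.17e-05 to 0.0472). Of the 19 named pathway genes, 14 lost the call under at least 1 alternative. Reads per library for the 10 genes ran from 159 (IGFBP5 in KO) to 27973 (IGFBP4 in KO), and each group had 2 libraries.

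With no filter on low values, 0 of the 10 genes passed in limma either way, although 2 rose and 1 fell with the filter, at adjusted p of 0.0672 for IGFBP3, 0.0895 for IRS1 and 0.0681 for IGFBP5. At an unadjusted limma p under 0.05 the count was 4 of 10, as it was with the filter. The share of all genes at that level was not computed, so the 4 of 10 cannot be set against a background and is no support for the calls. After adjustment, 183 of the 32306 genes tested with no filter were higher and 193 lower, and among pathway genes 1 and 4. Scaling by total reads gave 1 higher and 2 lower of the 10, beside 1538 higher and 1734 lower of all 14100 genes. Quantile normalization gave 1 higher and 1 lower, beside 1588 and 1684 of all genes. Voom on recovered reads gave 2 higher and 2 lower, beside 2168 and 1957 of all genes. A filter of 5 FPKM gave 2 higher and 2 lower, beside 1259 and 1041 of 7847 genes. Of the pathway genes, 5 were higher and 10 lower with that filter. Leaving out 1 library gave 505 to 1321 genes higher and 537 to 1260 lower among all genes (505 and 537 without WT replicate 1, 677 and 614 without WT replicate 2), and 1 to 6 higher and 6 to 11 lower among pathway genes. The log2 ratio of IRS1 to IRS2 differed by 2.65 with a pseudocount of 0.1 and by 2.34 with 1. The cause of these shifts was not tested.

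The replicate numbers are shared by the groups. The difference between replicates 1 and 2 correlated at 0.411 between KO and WT across 14100 genes, but with 2 pairs and no label that ties a number to a culture the numbers were not taken as pairs. With the replicate block, 2968 genes were higher and 2577 lower, and 3 of the 10 were lower, since IGFBP2 (limma adjusted p = 0.00759) and IGFBP6 (limma adjusted p = 0.00357) joined IGFBP5.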
